A study of Homo sapiens with 36 samples.

Results

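Transcripts of 10 genes of glycolysis and lactate formation were followed along polysome gradients of human embryonic stem cells. They were chosen by name, as 1 Ensembl transcript model per gene: HK2 (ENST00000290573.6), GPI (ENST00000356487.10), TPI1 (ENST00000396705.9), GAPDH (ENST00000229239.9), PGK1 (ENST00000373316.4), PGAM1 (ENST00000334828.5), ENO1 (ENST00000234590.9), PKM (ENST00000335181.9), LDHA (ENST00000422447.7) and LDHB (ENST00000350669.5). All 10 were found among the 223367 transcripts of the table, and all 10 passed the filter on low values (at least 1 TPM in at least 3 libraries) with 51052 transcripts in all. TPM, the unit of level, is a transcript's share of the library, scaled to a sum of 1000000, that already takes transcript length into account. Each value is the estimate for 1 transcript model and not the total of its gene, so a low level of one model says nothing of the gene's other isoforms.

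The cells were of the established embryonic stem cell line HUES6, grown in FTDA medium, and were either wild type (WT) or carried a knockout (KO) of RBPMS, which encodes an RNA-binding protein. All cultures of both genotypes had been given 100 ng/ml cycloheximide, which stalls ribosomes on mRNA, for 5 min before the gradient. From each of 3 cultures per genotype, RNA was sequenced (75 nt paired-end reads, stranded poly(A) libraries) from the unfractionated Input and from 5 gradient fractions, named 40S, 80S, disome, Polysome1 and Polysome2, which made 36 libraries. Equal amounts of RNA entered each library, so a TPM value is a share of that fraction's mRNA, not an amount of mRNA in the fraction. The labels do not say whether the KO cultures came from 1 clone or several, and the replicates may be technical: p-values measure the spread between these samples only. Samples of a genotype that share a replicate number are called a culture here, though the labels give only the number. In such bulk samples, fewer cells with a transcript and less of it per cell cannot be told apart. RBPMS itself and the markers of pluripotent and other cell types were not analysed here, because no table used here pairs the transcripts with gene names beyond the 10 members.

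Glycolysis splits glucose into pyruvate in the cytosol. Hexokinase (HK2) traps glucose as glucose 6-phosphate, GPI converts it to fructose 6-phosphate, and TPI1 interconverts the triose phosphates. GAPDH, PGK1, PGAM1, ENO1 and PKM carry the triose on to pyruvate, with ATP made at the PGK1 and PKM steps, and LDHA and LDHB are the subunits of the lactate dehydrogenase that interconverts pyruvate and lactate. Primed human pluripotent stem cells are known for a high glycolytic flux, and several of these genes are known targets of hypoxia-inducible and MYC transcription factors, whose binding sites contain the cores ACGTG or GCGTG (hypoxia-inducible factors) and CACGTG (MYC).

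Sequences before a RefSeq start are shown for the 4 members called lower in KO Input, because those 4 passed the test together. Their call depended on KO replicates 1 and 2, as given below. Each is the 250 bases before the first start listed by RefSeq (GRCh38.p14), on the strand of the gene, with the letters ACGTG and GCGTG on either strand in capitals. The windows lie at chr12:6535014-6535263 (plus strand, GAPDH), chrX:78103998-78104247 (plus, PGK1), chr11:18394313-18394562 (plus, LDHA) and chr2:74833877-74834126 (plus, HK2). RefSeq starts were matched by symbol and not to the measured transcript model, and LDHA and HK2 have a further window that is not printed. A window may therefore belong to another start than that of the measured model, as may be so for GAPDH.
GAPDH: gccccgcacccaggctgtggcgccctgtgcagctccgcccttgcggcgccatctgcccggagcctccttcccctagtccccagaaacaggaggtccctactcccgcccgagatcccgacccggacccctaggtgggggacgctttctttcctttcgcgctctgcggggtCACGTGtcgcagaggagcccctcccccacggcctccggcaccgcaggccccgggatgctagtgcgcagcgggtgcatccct
PGK1: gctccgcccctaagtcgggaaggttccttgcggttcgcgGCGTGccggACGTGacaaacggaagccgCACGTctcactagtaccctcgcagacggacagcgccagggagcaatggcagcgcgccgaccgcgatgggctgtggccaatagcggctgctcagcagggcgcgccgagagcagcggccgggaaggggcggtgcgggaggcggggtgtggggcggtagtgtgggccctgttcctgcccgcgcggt
LDHA: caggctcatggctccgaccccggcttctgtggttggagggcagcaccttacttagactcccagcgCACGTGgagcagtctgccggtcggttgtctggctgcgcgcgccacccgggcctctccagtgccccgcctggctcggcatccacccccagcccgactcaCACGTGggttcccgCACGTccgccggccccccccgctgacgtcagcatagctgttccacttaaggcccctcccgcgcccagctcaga
HK2: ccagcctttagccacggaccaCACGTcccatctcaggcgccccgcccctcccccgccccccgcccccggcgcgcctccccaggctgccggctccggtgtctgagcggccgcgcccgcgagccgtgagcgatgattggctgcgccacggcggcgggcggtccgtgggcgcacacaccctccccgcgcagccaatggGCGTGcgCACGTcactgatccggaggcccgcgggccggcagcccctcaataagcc
Counting both strands, so that the palindrome CACGTG counts as 2 matches of ACGTG, the first core occurs 2 times in the window of GAPDH, 2 in PGK1, 5 in LDHA and 2 in HK2, and the GCGTG core 0, 1, 0 and 1 times. All 10 members have a window, 13 windows in all. Among the 10 first windows, 5 hold ACGTG, 3 hold GCGTG and 6 hold either. Of 35116 RefSeq windows of the same length, 18.5% hold ACGTG, 32.2% hold GCGTG and 43.2% hold either. A match of letters describes the sequence and is not a measured binding site.

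KO replicates 1 and 2 stood apart from KO replicate 3: GAPDH, GPI and PKM were lower in both than in replicate 3 in all 6 samples of the gradient. The results are therefore given with and without them. Transcripts reaching 1 TPM in Input numbered 34899 to 38389 in WT libraries and 18666 to 31380 in KO libraries. RNA spike-ins (ERCC, summed TPM) were higher in every KO library than in every WT library of the same fraction, and took 109 ± 68.3 TPM of WT Input against 888 ± 513 TPM of KO Input (mean ± SD, n = 3 each). KO Input replicate 3 correlated most closely with a WT Input library (r = 0.9155 of log2(TPM + 1) over transcripts). The submitters' description of this library reads Input2, unlike that of the other Input libraries, and the labels do not say what this means. Among WT libraries, replicate 3 stood apart in 40S, where its 10 members summed to 198 TPM against a highest value of 1078 TPM. The deposited values carry no read depth, so no counting interval can be given. The part of RNA quality or library complexity in the results was not tested.

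In WT Input the 10 transcripts together took 4736 ± 84.3 TPM (SD, n = 3). ENO1 was the highest at 1207 ± 44.1 TPM. TPI1 followed at 927 ± 118 TPM and LDHB at 914 ± 103 TPM, and the ranges of these 2 overlapped. PGAM1 stood at 739 ± 73.3 TPM, PKM at 635 ± 24.2 TPM, GAPDH at 167 ± 26.4 TPM, GPI at 108 ± 4.88 TPM and PGK1 at 25.3 ± 0.591 TPM. HK2, at 9.01 ± 4.94 TPM, and LDHA, at 5.35 ± 1.68 TPM, came last, with overlapping ranges. All other neighbours in this order had ranges that did not overlap. The low levels of the GAPDH, PGK1 and LDHA models are those of these models alone.

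**Figure D1:**
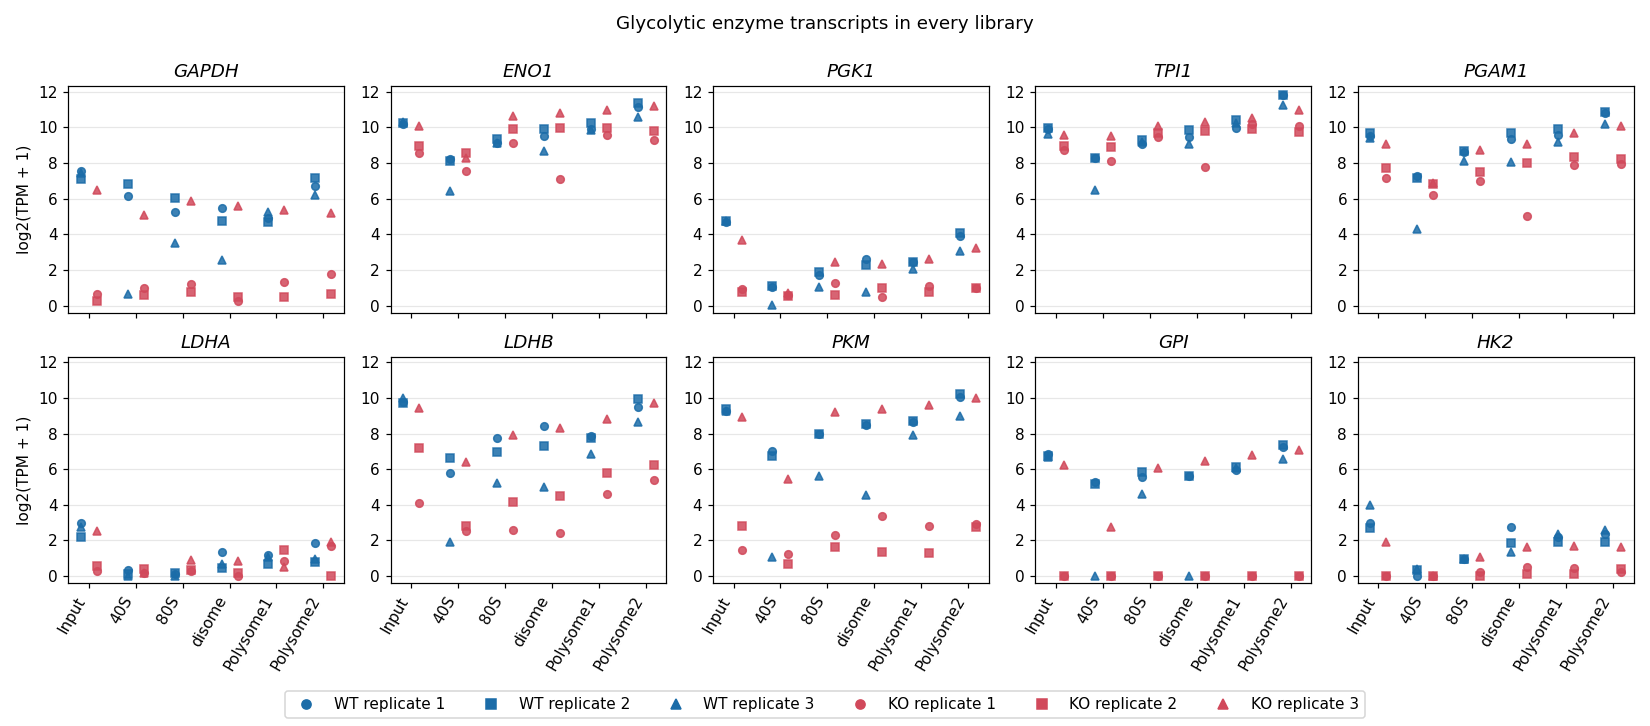
Level of each transcript in every library, as log2(TPM + 1) on the vertical axis, by gradient fraction on the horizontal axis; blue marks are WT and red marks KO cultures, with 1 symbol per replicate number. In every WT culture, all 10 transcripts lie higher in Polysome2 than in 80S, while KO replicates 1 and 2 (red circles and squares) lie below 2 for GAPDH, GPI and HK2 in every fraction.

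Along the WT gradient the summed level of the 10 members was lowest in 40S and highest in Polysome2. It was 776 ± 501 TPM in 40S and went through 1911 ± 337 TPM (80S), 2498 ± 1084 TPM (disome) and 3637 ± 542 TPM (Polysome1) to 8873 ± 2317 TPM in Polysome2 (SD, n = 3 each). Tests between fractions used limma on log2(TPM + 1) over all 51052 transcripts with Benjamini-Hochberg adjustment. A second fit held the culture as a block, with fractions of the same genotype and replicate number taken as 1 culture. All 36 libraries entered both fits, so the spread also comes from the KO libraries. Deviations from the group mean within a culture correlated more in KO (median r 0.572) than in WT (median r 0.106). More calls with the block therefore do not rest on WT pairing alone.

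TPI1 was higher in Polysome2 than in 80S in every WT culture, though in culture 3 its disome level (534 TPM) lay below that of 80S. Its level was 526 (culture 1), 631 (culture 2) and 569 TPM (culture 3) in 80S and 3586, 3639 and 2464 TPM in Polysome2. The 2 fractions did not overlap, and TPI1 rose by 2.47 on the log2 scale from 80S to Polysome2 (SE 0.53, adjusted p = 0.0046, limma). PGK1 was at 2.28, 2.70 and 1.02 TPM in 80S and at 13.8, 15.8 and 7.32 TPM in Polysome2, a rise of 2.13 (SE 0.69, adjusted p = 0.041, limma). These 2 were the members that passed, where 8.63% of all tested transcripts were called higher in Polysome2 than in 80S. With the culture as a block, in a fit that also held the KO libraries, 8 of 10 passed (all but GAPDH and GPI), against 22.5% of all transcripts. The blocked estimates ran from 1.13 for LDHA (adjusted p = 0.037) to 2.72 for LDHB (adjusted p = 0.003). All 10 members were higher in Polysome2 than in 80S in each of the 3 WT cultures, as were 38.2% of all transcripts tested, and the median difference was 1.98 for the members and 0.23 for all transcripts (1.20 and -0.01 under median-of-ratios scaling). Leaving out 1 WT culture lowered the unblocked count to between 0 and 1, while leaving out KO replicate 1, 2 or 3, which changes only the spread shared in the fit, gave 4, 1 and 6.

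Against Input, the called members were lower in every WT fraction up to Polysome1. In 40S, 7 of 10 members were called lower than in Input (42.5% of all transcripts), and 10 of 10 with the culture block (53.3%). Without WT replicate 3, 3 of 10 passed. Under median-of-ratios scaling 3 passed, and TPI1 turned to a positive difference. Of the 7, the fall was largest for LDHB (log2 difference -5.06, SE 1.56, adjusted p = 0.010, limma) and PGK1 (-3.98, SE 0.69, adjusted p = 5.2e-05, limma). LDHB went from 879, 833 and 1031 TPM in Input to 54.2, 99.5 and 2.71 TPM in 40S, and PGK1 from 24.7, 25.3 and 25.8 TPM to 1.06, 1.16 and 0.0406 TPM. PGAM1, which moves the phosphate of phosphoglycerate, went from 736, 813 and 667 TPM to 154, 143 and 18.4 TPM. HK2 went from 6.83, 5.53 and 14.7 TPM to a value listed at 0, 0.273 and 0.324 TPM. None of these 4 overlapped between the fractions, but the share of all transcripts without such overlap was not counted. PKM, called with the block alone, had a difference of -4.36. The third WT 40S library was the lowest of the 3 for 9 of the 10 members and held between 0% (GPI and LDHA) and 30.3% (ENO1) of the mean of the other 2 libraries, while HK2 was at 237% of it.

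In 80S, 3 of 10 members were called lower than in Input, against 19.4% of all transcripts. They were PGK1 (log2 difference -3.18, SE 0.69, adjusted p = 0.0013), LDHA (-2.54, SE 0.47, adjusted p = 0.00019) and HK2 (-2.25, SE 0.51, adjusted p = 0.0017), all by limma. The culture block added GAPDH, LDHB and PKM, for 6 of 10 against 29.2%. HK2, the first enzyme of the pathway, was at 6.83, 5.53 and 14.7 TPM in Input and at 0.957, 0.961 and 0.923 TPM in 80S, with no overlap. PGK1 fell to 2.28, 2.70 and 1.02 TPM, and LDHA from 6.81, 3.52 and 5.73 TPM to 0.0902 TPM, 0.107 TPM and a value listed at 0. All 10 members were lower in 80S than in Input in all 3 WT cultures, and so were 43.5% of all transcripts.

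In disome and Polysome1 the members called below Input without the block were PGK1 and LDHA in both. By direction alone, 9 of 10 members lay below Input in every WT culture in disome, and 8 in Polysome1. The share of all transcripts with that direction was not counted for these fractions. PGK1 was at 5.15, 3.91 and 0.710 TPM in disome and at 4.46, 4.45 and 3.12 TPM in Polysome1, and LDHA at 1.51, 0.374 and 0.590 TPM and at 1.23, 0.617 and 1.14 TPM. Neither overlapped with its Input values. The same held in both fractions for GAPDH, LDHB, PKM and GPI, which were not called without the block. The share of all transcripts without such overlap was not counted. In disome these 2 stood against 10.7% of all transcripts, and the block raised the count to 6 (18.5%) with GAPDH, LDHB, GPI and HK2. GPI in disome was at 47.6, 48.3 and 0.00836 TPM, so WT replicate 3 was far below the other 2. In Polysome1 they stood against 8.83%, and the block raised the count to 5 (14%) with GAPDH, LDHB and HK2. Leaving out any single WT culture took the unblocked Polysome1 count to 0, and leaving out WT replicate 2 or 3 did so in disome, where leaving out KO replicate 3 gave 6. Between 40S and 80S no member passed without the block (3.25% of all transcripts were called higher in 80S; 3 members had an unadjusted p under 0.05, limma), while ENO1, TPI1, PGAM1 and LDHB passed with it (23.9%). Without KO replicate 1 or KO replicate 3, 3 and 2 passed unblocked. Under median-of-ratios scaling the differences of ENO1 and TPI1 between 40S and 80S turned negative, so their direction there rests on the scaling.

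In Polysome2, TPI1 was called above Input and LDHA below it. TPI1 was at 971, 1015 and 793 TPM in WT Input, below each of its 3 Polysome2 values, and the difference was 1.79 (SE 0.53, adjusted p = 0.024, limma). It was 1 member of 10, where 3.28% of all transcripts were called higher. LDHA was the 1 member called lower in Polysome2 than in Input, at -1.41 (SE 0.47, adjusted p = 0.044, limma), where 8.81% of all transcripts were called lower. Its values were 6.81, 3.52 and 5.73 TPM in Input and 2.65, 0.753 and 0.976 TPM in Polysome2. Leaving out any 1 WT culture took both calls away, and leaving out KO replicate 2 took away 1. ENO1, TPI1 and PGAM1 were higher in Polysome2 than in Input in all 3 WT cultures, and PGK1, LDHA and HK2 were lower in all 3, while GAPDH, LDHB, PKM and GPI went either way.

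In KO Input, 4 of the 10 members were called lower than in WT: GAPDH, PGK1, LDHA and HK2. Of all transcripts tested, 18% were called lower. The median log2 difference was -2.75 over the members and -0.51 over all transcripts, and under quantile normalization, which moved the latter to 0.0032, the member median was -2.25 with 3 called.

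HK2 was at 6.83, 5.53 and 14.7 TPM in the WT Input libraries, was listed at 0 in KO replicates 1 and 2, and was at 2.73 TPM in KO replicate 3. The groups did not overlap, and the log2 difference was -2.58 (SE 0.51, adjusted p = 0.00047, limma). GAPDH, which oxidises glyceraldehyde 3-phosphate, was at 188, 137 and 175 TPM in WT and at 0.590, 0.202 and 88.3 TPM in KO. The groups did not overlap, but KO replicates 1 and 2 lay far below KO replicate 3, and the difference of -4.91 had an SE of 1.75 (adjusted p = 0.046, limma). PGK1, the first ATP-forming step, was at 24.7, 25.3 and 25.8 TPM in WT and at 0.925, 0.720 and 11.8 TPM in KO, a difference of -2.91 (SE 0.69, adjusted p = 0.0034, limma). LDHA was at 6.81, 3.52 and 5.73 TPM in WT and at 0.213, 0.484 and 4.76 TPM in KO, a difference of -1.51 (SE 0.47, adjusted p = 0.022, limma). KO replicate 3 lay inside the WT range for LDHA, so these groups overlapped.

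The other 6 members did not pass in Input. GPI was at 113, 108 and 104 TPM in WT, was listed at 0 in KO replicates 1 and 2, and was at 73.8 TPM in KO replicate 3 (adjusted p = 0.11, limma). PKM, which makes pyruvate, was at 623, 663 and 619 TPM in WT and at 1.74, 6.05 and 485 TPM in KO (log2 difference -4.91, SE 2.31, adjusted p = 0.13, limma). LDHB was at 16.0, 145 and 700 TPM in KO, against 833 TPM or more in WT (adjusted p = 0.18, limma). ENO1, TPI1 and PGAM1 kept the largest part of their level in KO replicates 1 and 2: TPI1 stood at 46.3% and 53.1% of the WT mean, ENO1 at 31.6% and 40.8%, and PGAM1 at 18.9% and 28.2%. PKM stood at 0.274% and 0.953%, and GAPDH at 0.353% and 0.121%.

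**Figure D2:**
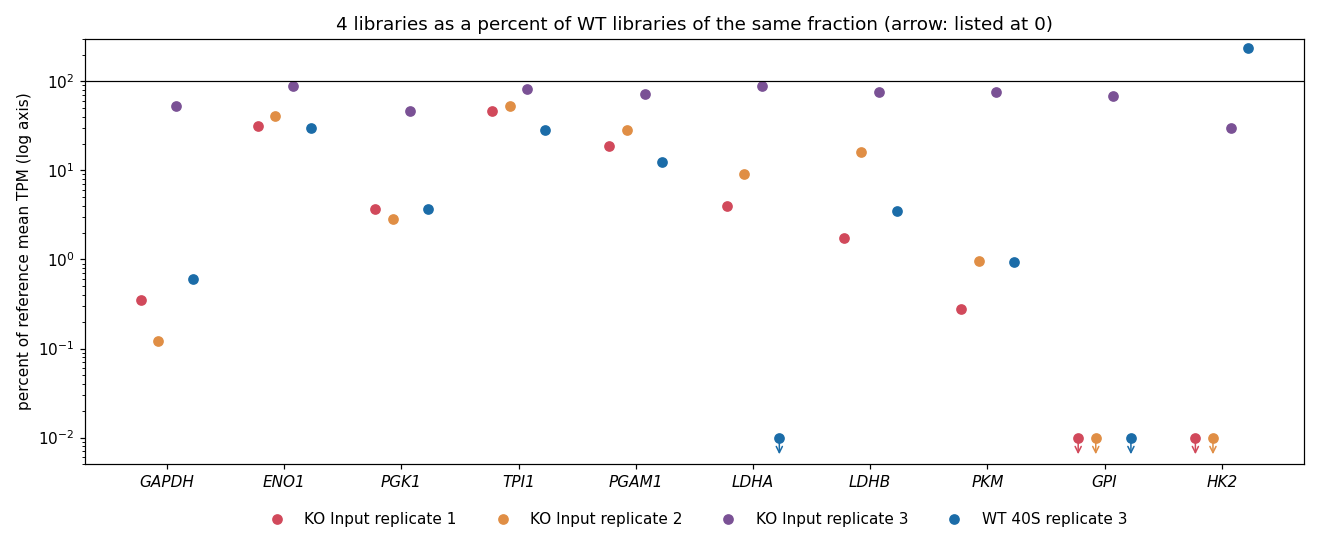
TPM of each transcript in 3 KO Input libraries as a percent of the WT Input mean, and in WT 40S replicate 3 as a percent of the mean of WT 40S replicates 1 and 2, on a log axis; an arrow marks a value listed at 0. KO Input replicate 3 (purple) lies between 30.3% (HK2) and 89.0% (LDHA), while replicates 1 and 2 spread from 0 to 53.1%.

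The call of these 4 members depended on KO replicates 1 and 2. With both left out, 0 of 10 members passed in Input (1 had an unadjusted p under 0.05, limma; 1.12% of all transcripts were called lower), and the member median was -0.44. KO replicate 3 alone is 1 sample, taken in that fit to vary like the other groups, and the differences without the other 2 were -1.32 for HK2 (SE 0.53), -1.04 for PGK1 (SE 0.64), -0.90 for GAPDH (SE 1.70) and -0.10 for LDHA (SE 0.44). Without KO replicate 1, or without KO replicate 2, 1 member passed (6.58% and 6% of all transcripts), without KO replicate 3, 8 passed (38%), and without WT replicate 1, or without WT replicate 3, 2 passed. In a fit of the 6 Input libraries alone, 0 members passed. The same order was seen without a fit: in KO replicate 3, 9 of 10 members lay below the lowest WT value, as did 34.5% of all transcripts, and in KO replicates 1 and 2 all 10 did, as did 60.9% and 54.7%. Input levels of the genotypes did not overlap, KO being lower, for 9 of 10 members (all but LDHA) and for 29% of all transcripts.

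**Figure D3:**
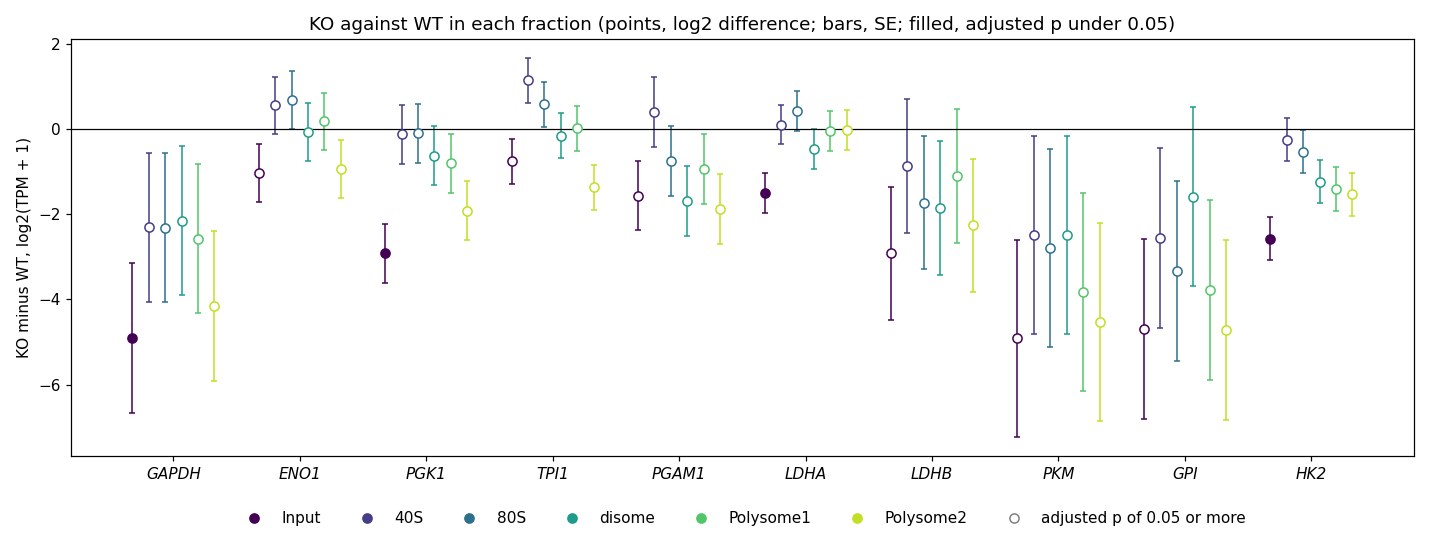
KO minus WT difference of each transcript on the log2(TPM + 1) scale, with its standard error as a bar, in Input and the 5 gradient fractions; filled points have an adjusted p under 0.05 (limma, n = 3 per genotype). Filled points are GAPDH, PGK1, LDHA and HK2 in Input, and GPI and PKM have the widest bars.

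On TPM as deposited, no member passed between KO and WT in any gradient fraction. Transcripts called lower were 0.00979% of all those tested in 40S, 0.537% for 80S, 2.74% for disome, 3.84% for Polysome1 and 3.62% for Polysome2. In that order, the members with an unadjusted p under 0.05 were 1, 0, 2, 1 and 6 of 10 (limma). In Polysome2 the median difference was -1.90 over the members and -0.22 over all transcripts. Leaving out KO replicate 3 brought members past the threshold as lower: 4 in 80S (16.8% of all transcripts), 6 for disome (28.2%), 5 for Polysome1 (27.3%) and 8 for Polysome2 (25.3%). Scaling to the ERCC spike-ins called 1 member lower in 80S (23.9% of all transcripts), 5 for disome (53.3%), 10 for Polysome1 (76.2%) and 10 for Polysome2 (76.1%). Levels lower in KO without overlap were counted for 0 members in 40S (2.7% of all transcripts), 0 for 80S (12.8%), 0 for disome (13%), 1 for Polysome1 (HK2; 19.6%) and 4 for Polysome2 (GAPDH, TPI1, PGAM1 and HK2; 13.8%).

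KO replicate 3 went the other way from replicates 1 and 2 in the middle of the gradient. In 80S it lay above the WT range for 9 of 10 members, as did 33.1% of all transcripts, while KO replicates 1 and 2 lay below it for 7 members each, as did 45.7% and 41.9% of all transcripts. PKM in 80S was at 246, 246 and 49.0 TPM in WT and at 4.02, 2.11 and 580 TPM in KO. ENO1 was at 561, 644 and 563 TPM in WT and at 554, 953 and 1592 TPM in KO. TPI1 was at 526, 631 and 569 TPM in WT and at 694, 818 and 1096 TPM in KO, with every KO value above every WT value. Its 80S difference did not pass (log2 difference 0.57, SE 0.53, adjusted p = 0.62, limma) and was -2.34 under ERCC scaling. LDHA, at 0.869 TPM or less in all 6 libraries of 80S, was the other member with KO above WT without overlap, a pattern of 7.09% of all transcripts.

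Ratios between fractions of the same culture compare the genotypes with each culture set against itself. In WT, ENO1 was lower in 80S than in Input by a log2 ratio of -1.04 ± 0.10 and TPI1 by -0.68 ± 0.20 (SD, n = 3). In KO both were higher in 80S than in Input in all 3 cultures, at 0.69 ± 0.23 and 0.65 ± 0.11. These are ratios of TPM as deposited, and the WT direction of TPI1 rests on that scaling. A pattern of lower in every WT and higher in every KO culture was found for 1.43% of all transcripts. KO ratios lay above all WT ratios without overlap for 9 of 10 members (all but LDHB) and for 24.4% of all transcripts. GPI was listed at 0 in both fractions of KO replicates 1 and 2, HK2 was listed at 0 in both of KO replicate 2 and in Input of KO replicate 1, and GAPDH, PGK1 and LDHA were under 1 TPM in Input of both cultures, so the added 1 TPM holds their ratios near 0. KO replicate 3, the KO culture closest to WT in Input, lay above all WT ratios for 10 of 10 members and 39% of all transcripts. LDHA and HK2 were at 1.06 TPM or less in 80S of KO replicate 3 and of every WT culture. The added 1 TPM therefore bears on their ratios there too.

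The reverse was seen between 80S and Polysome2. The log2 ratio of TPI1 was 2.47 ± 0.33 in WT and 0.52 ± 0.44 in KO, that of PGK1 was 2.13 ± 0.08 and 0.31 ± 0.55, that of ENO1 was 1.84 ± 0.34 and 0.21 ± 0.34, and that of PGAM1 was 2.15 ± 0.08 and 1.02 ± 0.31 (SD, n = 3 each). None of these 4 overlapped between genotypes. The KO ratios were all under the lowest WT ratio for 8 of 10 members (all but LDHA and LDHB) and for 14.9% of all transcripts; KO replicate 3 alone lay below all WT ratios for 9 members (all but LDHA) and 25.8% of all transcripts. GPI was listed at 0 in both fractions of KO replicates 1 and 2 and HK2 was at 0.310 TPM or less there, so their ratios in these cultures are set by the added 1 TPM, and GAPDH and PGK1 were at 2.38 TPM or less. In KO no member passed between 80S and Polysome2 (1.4% of all transcripts were called higher; 0 members had an unadjusted p under 0.05, limma), and 4 of 10 (TPI1, PGAM1, LDHB and PKM) were higher in all 3 KO cultures, as were 22.9% of all transcripts.

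**Figure D4:**
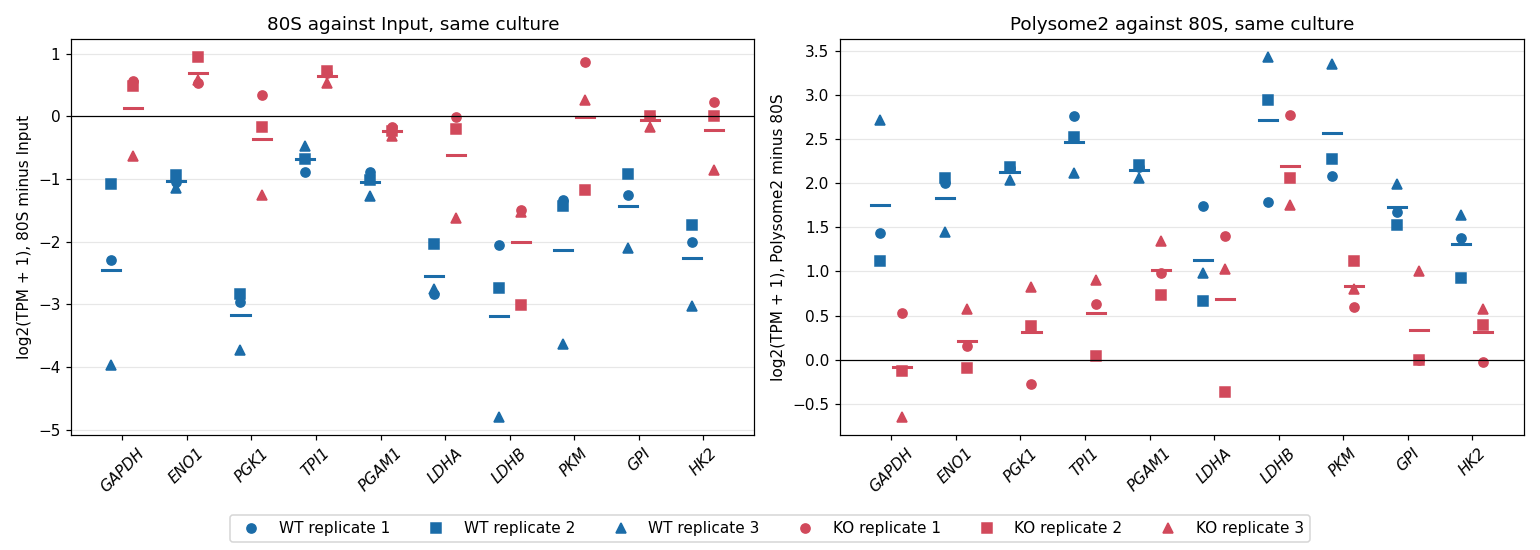
Difference of log2(TPM + 1) between 80S and Input (left) and between Polysome2 and 80S (right) within each culture; blue marks are WT, red marks KO, and horizontal bars are means over 3 cultures. On the left the KO marks of ENO1 and TPI1 are all above 0 and the WT marks all below it, and on the right the WT and KO marks of ENO1, PGK1, TPI1 and PGAM1 do not overlap.

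Interaction terms in the fit over all transcripts tested these shifts directly. The KO minus WT shift of Polysome2 relative to 80S was negative for all 10 members (median -1.51, against -0.06 over all transcripts; -1.19 against 0.03 under median-of-ratios scaling), from -0.44 for LDHA (0.083 without KO replicate 2) to -1.94 for TPI1, and none passed (0.0901% of all transcripts were called in either direction; 1 member, TPI1, had an unadjusted p under 0.05, limma). With the culture block, TPI1 reached an adjusted p of 0.066 and PGK1 of 0.077 (limma). With KO replicates 1 and 2 left out, this shift ran from -0.11 for LDHA (SE 0.63) to -2.40 for GAPDH (SE 2.40). The shift of 80S relative to Input, a comparison added after the ratios had been seen, had a member median of 1.83 against 0.30 over all transcripts. None passed without the block (3.87% of all transcripts; 3 members with an unadjusted p under 0.05, limma). With the block 3 passed, against 8.32%, all of which were under 1 TPM in Input of KO replicates 1 and 2, where the added 1 TPM holds a ratio near 0: PGK1 (2.82, SE 0.55, adjusted p = 0.0018), HK2 (2.05, SE 0.50, adjusted p = 0.011) and LDHA (1.93, SE 0.58, adjusted p = 0.039), all by limma. KO replicate 3 lay above that level in Input. Its 80S to Input log2 ratio was -1.25 for PGK1, -0.85 for HK2 and -1.62 for LDHA. The WT ratios were at most -2.83, -1.74 and -2.03. In 80S, however, HK2 was at 0.961 TPM or less in WT and at 1.06 TPM in KO replicate 3. LDHA was at 0.107 TPM or less in WT and at 0.869 TPM in KO replicate 3. The added 1 TPM therefore bears on the ratios of HK2 and LDHA as well, which partly restate the Input level. The shift of Polysome1 relative to Input, added likewise, called 0 members (2.68%; 2 with an unadjusted p under 0.05, limma) and with the block PGK1 (2.10, SE 0.55, adjusted p = 0.025, limma; 5.13%), under the same limit. The shift of Polysome2 relative to Input called 0 members, where 2.31% of all transcripts were called and 1 member had an unadjusted p under 0.05 (limma). Without KO replicate 3, the unblocked counts were 3 for 80S and 2 for Polysome1 relative to Input.

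The measured transcript models of the lactate dehydrogenase subunits lay far apart in level. Their share compares 1 model of each gene and not the genes or the proteins. LDHB, per length, exceeded the LDHA model in every library, and LDHA was 0.581% ± 0.176 of their sum in WT Input (SD, n = 3), from 0.421% to 0.769%. In WT Polysome2 the share was 0.227% ± 0.142. In KO it was 0.775% ± 0.501 in Input and 1.82% ± 2.87 in Polysome2, where LDHA was at 2.19 TPM, listed at 0, and at 2.80 TPM, and LDHB at 40.4, 75.2 and 823 TPM. The KO and WT ranges of the share overlapped in all fractions but 80S, where it was 0% to 0.0860% in WT and 0.355% to 3.91% in KO, with LDHA under 1 TPM in every library.

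The profiles of the members over the 12 group means resembled their common mean profile to different degrees. That mean contains each member itself and weighs most those that vary most, so part of the likeness is built in. Pearson's r of log2(TPM + 1) with that mean was 0.964 for PKM, 0.957 for LDHB, 0.943 for HK2 and 0.939 for PGK1, and it was lowest for LDHA (0.734) and TPI1 (0.689). Among all other transcripts tested, the 2 with the closest profile were ENST00000419869.6 (r = 0.9931) and ENST00000413922.6 (r = 0.9921), for which no table used here gives a name. Each mean profile shares the 6 cultures, so these values describe the libraries and were not tested.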

How the data were processed

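The deposited table holds transcript TPM for 36 libraries; per the submitters' processing notes kallisto, sleuth and hg19 were used, with versions and annotation not given in the sources used here. Each library sums to 1000000 TPM over 223367 transcripts and 92 ERCC spike-ins, and all columns were used. TPM holds no depth. Values were tested as log2(TPM + 1) with limma 3.58.1 (R 4.3.3): 12 group means, a mean-variance trend, transcripts at 1 TPM or more in at least 3 libraries, Benjamini-Hochberg adjustment over 51052 transcripts and a threshold of 0.05. A fold on this scale understates changes of low transcripts. The limma fit was run on simulated data with independent noise, where changes were set only in transcripts of higher level and small spread. That run does not show how the fit behaves when KO replicates stand apart. Members and lists were chosen with earlier results of these data known, and comparisons follow the labels.

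Values in every library are given for called members (the 4 with the largest difference where more were called, and without the block), for LDHA with LDHB and for HK2; further values shown were chosen after they were seen. The culture block was fitted because a culture's fractions share a number in the labels: deviations of the same culture correlated over 0.1 in 45 of 45 KO pairs (median 0.572) and 23 of 45 WT pairs (median 0.106). Protein lengths, marker lists and the RBPMS level were not analysed here. Alternatives tried were a pseudocount of 0.1, filters of 10 TPM and none, quantile, median-of-ratios and ERCC scaling, fits of the compared groups alone, blocks and left-out cultures. Promoter windows on chromosome 8 were left out.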

Additional observations from a re-analysis of the deposited data

Results flagged for a closer look

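Within-culture log2 ratios of ENO1 and TPI1 moved in opposite directions in the genotypes: every WT culture had less in 80S than in Input and every KO culture more. The KO mean ratio exceeded the WT mean ratio by 1.73 for ENO1 and by 1.33 for TPI1. For ENO1 the same held of Polysome1 against Input, by 1.22. Tested as interaction terms, these differences did not pass without the culture block or with it (ENO1 in 80S, adjusted p = 0.085 with the block, limma).

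The ERCC spike-ins, which served the comparisons of the members only as an alternative scaling, took more of every KO library than of any WT library of the same fraction. Their mean summed level over 3 KO libraries was 888 TPM in Input, 2683 TPM in 40S, 244 TPM in 80S, 133 TPM in disome, 219.6 TPM in Polysome1 and 375 TPM in Polysome2. The WT means were 109, 451, 28.9, 18.5, 9.55 and 6.82 TPM.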

How the results depend on the processing

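For 59 differences of single members, the alternatives gave 818 values: 668 kept their direction and their side of the threshold, 67 no longer passed, 78 came to pass and 5 reversed. Reversed under median-of-ratios scaling were TPI1 in WT 40S against Input (0.47) and, in WT 80S against 40S, ENO1 (-0.31) and TPI1 (-0.45). Reversed also were TPI1 in 80S between KO and WT under ERCC scaling (-2.34) and the LDHA shift of Polysome2 relative to 80S without KO replicate 2 (0.083; -0.80 without KO replicate 1). The cause was not tested.

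Counts of members called between KO and WT depended most on scaling and on KO replicates. In Input, 4 were called, 2 with a pseudocount of 0.1, 1 under the filter of 10 TPM (8 members tested), 8 under ERCC scaling, and 0 in a fit of Input alone or without KO replicates 1 and 2. ERCC scaling called 1 member for 80S, 5 for disome, 10 for Polysome1 and 10 for Polysome2. Its median over all transcripts was -1.37 for Input, -1.43 for 80S, -2.02 for disome, -3.01 for Polysome1 and -3.40 for Polysome2. In Polysome2, quantile normalization called 1 and median-of-ratios scaling 2. Leaving out each culture gave 1 to 8 for Input, 0 to 4 for 80S, 0 to 6 for disome, 0 to 5 for Polysome1 and 0 to 8 for Polysome2, the highest each time without KO replicate 3.

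For WT against Input, median-of-ratios scaling called 3 in 40S. The filter of 10 TPM called 1 each for 80S, disome, Polysome1 and Polysome2, a pseudocount of 0.1 called 1 in disome, 0 in Polysome1 and 1 in Polysome2, and quantile normalization 1 in Polysome2. Fits of the compared groups alone called 9 in 80S and 5 in Polysome1. Left-out cultures gave 3 to 10 for 40S, 0 to 6 for disome, 0 to 3 for Polysome1 and 0 to 2 for Polysome2. For WT 80S against 40S they gave 0 to 3, and 3 without KO replicates 1 and 2. For WT Polysome2 against 80S they gave 0 to 6, 6 without KO replicates 1 and 2, 1 with a pseudocount of 0.1, 1 with no filter, 4 under quantile normalization and 8 in a fit of these groups. For the shift of 80S relative to Input, quantile normalization called 1 and left-out cultures 0 to 3; for that of Polysome1 they gave 0 to 2.

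With the replicate block by culture, members called were 6 in WT 80S, 6 in disome and 5 in Polysome1 against Input, 4 in WT 80S against 40S, 8 in WT Polysome2 against 80S, 3 for the shift of 80S and 1 for that of Polysome1. KO and WT samples of the same number were not paired (1 of 18 correlations over 0.1, from -0.709 to 0.107), and a replicate block across them called 1 in Polysome1 and 1 in Polysome2.

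Quantile normalization moved the summed level to 4551 TPM for WT Input, and for 40S to 1433 TPM (WT) and 1488 TPM (KO). It moved the LDHA share to 0.363% (WT Input), 0.724% (WT 40S), 5.46% (KO 40S), 5.04% (KO 80S) and 1.08% (KO disome). Without KO replicates 1 and 2 the KO sum was 3715 TPM for Input, 4062 TPM for 80S, 4718 TPM for disome, 5727 TPM for Polysome1 and 7501 TPM for Polysome2, and the LDHA share of KO Polysome1 was 0.091%. The TPM values hold no depth, so levels under 1 TPM have no counting limit here.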
